A study of Mus musculus with 19 samples.

Results

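The glutamate receptor genes and their auxiliary subunits were read in RNA-seq of the CA1 region of the mouse hippocampus. The set held 31 genes of the 48709 in the count files, chosen by name: 4 AMPA, 7 NMDA, 5 kainate and 1 delta receptor subunit, 7 metabotropic receptors, and 7 auxiliary subunits of AMPA receptors, namely 5 TARPs and 2 cornichon homologs. All 31 were matched to GENCODE M21 by their Ensembl identifiers.

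All mice were 7 months old and had lipid nanoparticles injected into the dorsal hippocampus. WT control (n = 6 libraries) came from wild-type littermates injected with a control oligonucleotide. APP control (n = 6) came from APPPS1-21 animals that received this control too. APP anti-miR-mix (n = 7), the treated group, came from APPPS1-21 animals that received inhibitors of 3 microRNAs (miR-148a-3p, together with miR-181a-5p and with miR-146a-5p). Values for the 3 groups are given in this order throughout. APPPS1-21 mice carry mutant human APP under Thy1 regulatory sequence, which drives expression in neurons, and they deposit amyloid. The wild-type titles hold both the name of the mixture and the word control, and these animals were taken as controls, as the study describes them. No wild-type group with the inhibitors was analysed here. A library was taken as 1 animal, and the p-values measure the spread between libraries.

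Most fast excitation in the brain passes through AMPA receptors, tetramers of the subunits encoded by Gria1 to Gria4. NMDA receptors join the obligatory subunit encoded by Grin1 with modulatory subunits encoded by the Grin2 and Grin3 genes, let calcium in when glutamate arrives at a depolarised membrane, and start the lasting changes of synaptic strength for which CA1 is the classic preparation. Kainate receptors tune release and excitability, and metabotropic receptors signal through G proteins on either side of the synapse. TARPs and cornichons bind AMPA receptors, and several of them help carry the receptors to the surface and slow their closing.

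The libraries held 19362343 to 37018917 counts. The members together took 0.619 ± 0.0628%, 0.565 ± 0.0267% and 0.531 ± 0.0233% of the counts (SD, n = 6, 6 and 7). App and Thy1, which catch reads of the transgenes or of their regulatory sequence, separated all 13 transgenic libraries from WT control. Thy1 lay between 18117 and 20733 normalized counts in WT control and at 36153 or above in the transgenic libraries, and App at most at 54801 and at least at 65315. None of the 13 marker lists of cell types was at 0 in any group. The CA1 markers Fibcd1, Wfs1, Pou3f1 and Mpped1 summed to between 20634 and 34627 normalized counts per library, and the CA3 list to between 1388 and 2397. Choroid plexus markers stood apart in WT control 5 (score 7.00, the mean log2 normalized count of the list) and APP anti-miR-mix 6 (6.4), against 3.73 to 5.18 elsewhere, and the calls of the members are therefore also given without these libraries.

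The members differed in level by orders of magnitude, and Cnih2 and Gria1 led in each group. Levels between genes are given as TPM, counts per kilobase of merged exon scaled to an equal total in each library. Cnih2, a cornichon homolog, averaged 774 TPM (SD 134 over the 19 libraries) and Gria1, the subunit of the activity-dependent AMPA receptor pool, 687 TPM (SD 125). Cacng7 followed at 253 TPM, then Gria2 at 246, Grik5 at 180, Grin1 at 179, Cacng8 at 153 and Cnih3 at 127. Gria3 at 126 TPM, Cacng3 at 120.5, Grin2b at 120.0 and Grm5 at 119.6 were closer to each other than their spread. Of the 30 neighbouring pairs in this order, 10 differed by more than the larger SD of the pair.

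At the low end were Grm8 at 7.19 TPM, Grin3b at 0.282 TPM and Grm6 at 0.00919 TPM. Grm6, the receptor known from ON bipolar cells of the retina, had at most 2 counts in any library, within the floor of 3 counts that a count of 0 allows, and was the 1 member that failed the filter on low counts. Grin3b had a mean of 6.07 to 6.83 normalized counts per group, and its exons overlap those of Tmem259 on the opposite strand. No fold of Grm6 is given, and that of Grin3b rests on these few counts.

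**Figure D1:**
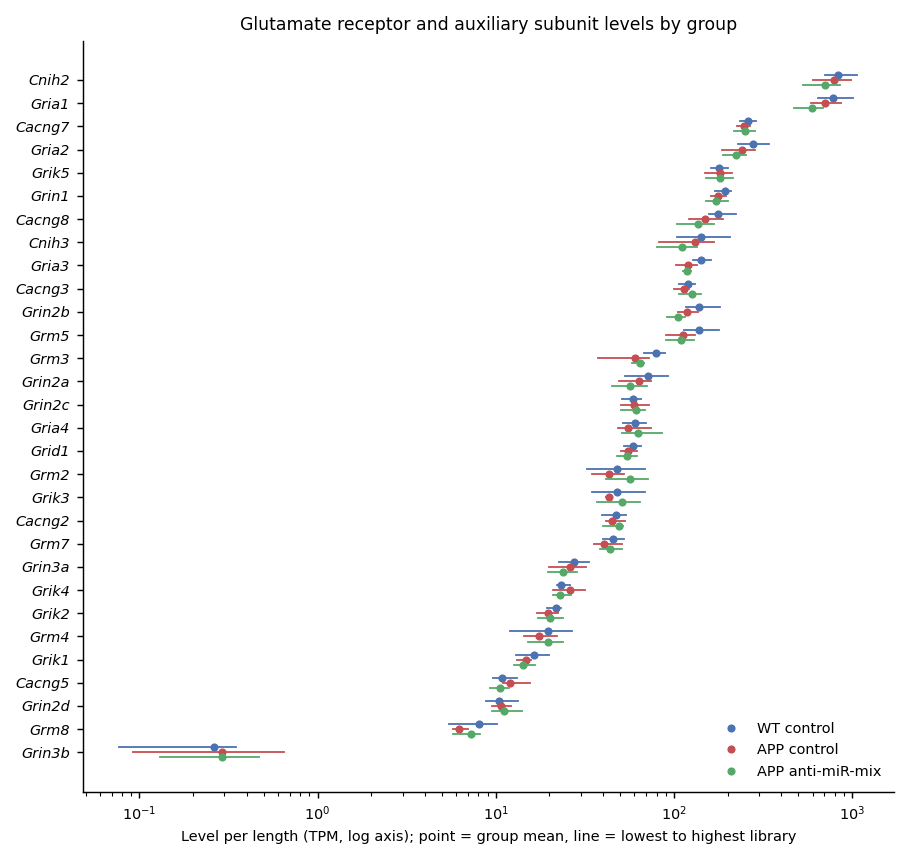
Level per length of 30 members on a log axis (TPM), ordered by the mean over the 19 libraries, with a point at each group mean and a line from the lowest to the highest library. Cnih2 and Gria1 lie far above the rest. Grm6 at 0.00919 TPM is not drawn.

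Within a receptor class the shares of the subunits overlapped between the groups. Of the AMPA subunit level per length, Gria1 made up 61.8 ± 3.08%, 62.7 ± 5.33% and 59.4 ± 5.09% (SD, n = 6, 6 and 7), and Gria2, whose edited product keeps calcium out of the channel, made up 22.0 ± 2.04%, 21.6 ± 3.4% and 22.4 ± 2.90%. Gria4 had 4.90 ± 0.970%, 4.95 ± 1.01% and 6.36 ± 1.60%. The summed AMPA level was 1259.96 ± 169, 1119 ± 84.3 and 996 ± 70.5 TPM.

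Among the NMDA genes, Grin1 held 38.6 ± 3.64%, 38.7 ± 1.40% and 39.7 ± 2.75% of the level. Of the 4 GluN2 genes, Grin2b, the subunit with slow closing and strong coupling to CaMKII, held 49.3 ± 3.29%, 46.7 ± 1.78% and 45.1 ± 2.20%, and Grin2a 25.3 ± 3.01%, 25.3 ± 3.05% and 24.2 ± 2.55%. The level of Grin2b per Grin2a was 1.97 ± 0.228, 1.86 ± 0.193 and 1.89 ± 0.273. The summed NMDA level was 499.9 ± 40.9, 454 ± 28.2 and 431 ± 31 TPM, and the AMPA level per NMDA level 2.51 ± 0.180, 2.46 ± 0.0974 and 2.32 ± 0.139. Grin2c, known from astrocytes and cerebellar granule cells, held 21.6 ± 4.02%, 23.7 ± 3.89% and 25.9 ± 2.02% of the GluN2 level.

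Grik5, a subunit that needs a partner of the Grik1 to Grik3 group to form a channel, led the kainate genes with 62.0 ± 3.70%, 63.5 ± 3.57% and 62.6 ± 2.42%. Grik3 came next at 16.6 ± 3.37%, 15.2 ± 1.28% and 17.5 ± 2.22%. Of the 5 TARP genes, Cacng7 held 42.4 ± 2.68%, 43.6 ± 1.65% and 43.8 ± 1.66%, and Cacng8, the TARP most enriched in the hippocampus, held 28.6 ± 3.88%, 26.3 ± 2.66% and 23.7 ± 3.13%. These shares are descriptions and were not tested. With counts in place of levels per length, 62 of the 75 shares moved by more than 1 SD, since the genes differ in length. In WT control, Gria1 and Gria2 then held 43.6% and 39.8% of the AMPA counts. Grin2b then led the NMDA genes there with 46.9% and Grin1 held 25.9%, against 27.6% and 38.6% per length.

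**Figure D2:**
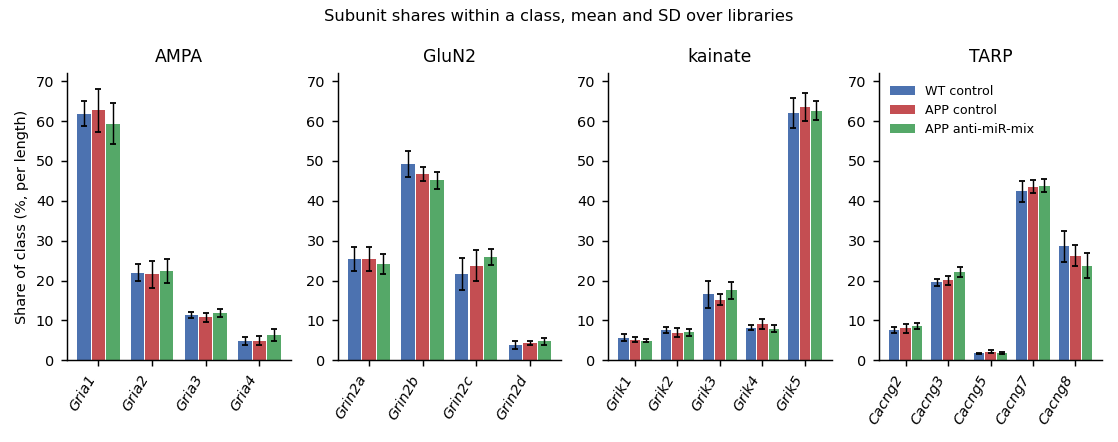
Share of each subunit (%, per length) in the AMPA, GluN2, kainate and TARP genes; bars are group means and error bars the SD over libraries. Gria1, Grin2b, Grik5 and Cacng7 lead their class in all 3 groups.

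The effect of the transgenes was asked by comparing APP control with WT control. Of the 30 members tested, 24 were lower in APP control and 6 higher, with a median log2 fold change of -0.14, against -0.01 over all 19284 genes tested. Grm3 and Grm8 fell, and no member rose (DESeq2, adjusted p under 0.05). These 2 of 30 members (6.67%) stand beside a background of 1.05% of all genes tested that passed in the lower direction, and the median SE of a log2 fold change was 0.111 for the members and 0.116 for all genes. In edgeR's quasi-likelihood test no member passed and 5 had an unadjusted p under 0.05, while over all genes 621 passed, 84 of them lower against 202 lower in DESeq2, and 2593 had an unadjusted p under 0.05 in either direction. In bulk tissue, fewer cells of a type and less RNA per cell cannot be told apart.

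Grm3 encodes a group II metabotropic receptor of astrocytes and presynaptic endings that lowers cyclic AMP. Its normalized counts had a lowest, median and highest value of 1481, 1703 and 1884 in WT control, of 809.5, 1358 and 1543 in APP control, and of 1295, 1403 and 1483 in APP anti-miR-mix. Of the APP control libraries 5 of 6 lay below the lowest WT control library, and the groups overlapped through APP control 3. APP control 5, at 809.5, was the lowest of all 19 libraries. That library also had the highest blood (8.95) and endothelium (10.1) marker scores of the 19 and the lowest oligodendrocyte score (13.0). Their part in its Grm3 value was not tested. The log2 fold change in APP control was -0.38 (SE 0.11, DESeq2 adjusted p = 0.0176), a decrease by 23.2%.

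The 5 astrocyte markers, read beside Grm3, had a median log2 fold change of 0.21 in APP control and a lowest adjusted p of 0.156 (Aldh1l1, DESeq2), and their summed level ranged from 16087 to 21547 normalized counts in WT control and from 17218 to 22210 in APP control. Between the treated group and WT control the log2 fold change of Grm3 was -0.29 (SE 0.11, DESeq2 adjusted p = 0.0685), which did not pass, and 6 of 7 treated libraries lay below the lowest WT control library.

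Grm8 encodes a group III metabotropic receptor of presynaptic endings. Its normalized counts had a lowest, median and highest value of 386, 602 and 686 in WT control, of 395, 440 and 490 in APP control, and of 417, 507 and 564 in APP anti-miR-mix. The groups overlapped throughout, and WT control 4 had the lowest value of all 19 libraries. The log2 fold change in APP control was -0.37 (SE 0.12, DESeq2 adjusted p = 0.0421).

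Both calls depended on single libraries and settings. Grm3 did not pass without WT control 2, 3 or 5, in edgeR, in a fit of these 2 groups alone, or with the adjustment number described below as a factor (adjusted p at most 0.0808). Grm8 did not pass in those settings, in the deposited log2 table, or without WT control 6, any of APP control 1 to 5, or APP anti-miR-mix 3 or 5 (adjusted p at most 0.153). Without both libraries with choroid plexus transcripts neither passed, with log2 fold changes of -0.36 for Grm3 and -0.34 for Grm8.

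The other metabotropic genes had values below 0 that did not pass. Grm5, the group I receptor that couples to calcium release beside the synapse, had 10077 ± 2223, 8184 ± 1029 and 7888 ± 1194 normalized counts (SD, n = 6, 6 and 7), with a log2 fold change of -0.30 in APP control (SE 0.13, DESeq2 adjusted p = 0.233). Grm7, a presynaptic group III receptor, had -0.16 (SE 0.09, adjusted p = 0.465). Grm4 had -0.17 (SE 0.15) and Grm2, the other group II receptor, -0.14 (SE 0.16).

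No ionotropic gene passed in this comparison. All 4 AMPA genes were lower by values from -0.14 to -0.23 on the log2 scale. The nearest to the threshold was Gria3 (log2 fold change -0.23, SE 0.08, DESeq2 adjusted p = 0.0823), for which 4 of 6 APP control libraries lay below the lowest WT control library. Grin2b had a log2 fold change of -0.24 (SE 0.11, adjusted p = 0.270). Grik4, the other high-affinity kainate subunit, was among the few members with a value above 0 (0.15, SE 0.08, adjusted p = 0.405), as was the TARP gene Cacng5 (0.15, SE 0.10, adjusted p = 0.523). Cacng8 had -0.24 (SE 0.13, adjusted p = 0.363), Cnih3 -0.10 (SE 0.18) and Cnih2 -0.06 (SE 0.13). Grid1, a delta subunit that binds cerebellins across the cleft, had -0.10 (SE 0.07, adjusted p = 0.567).

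**Figure D3:**
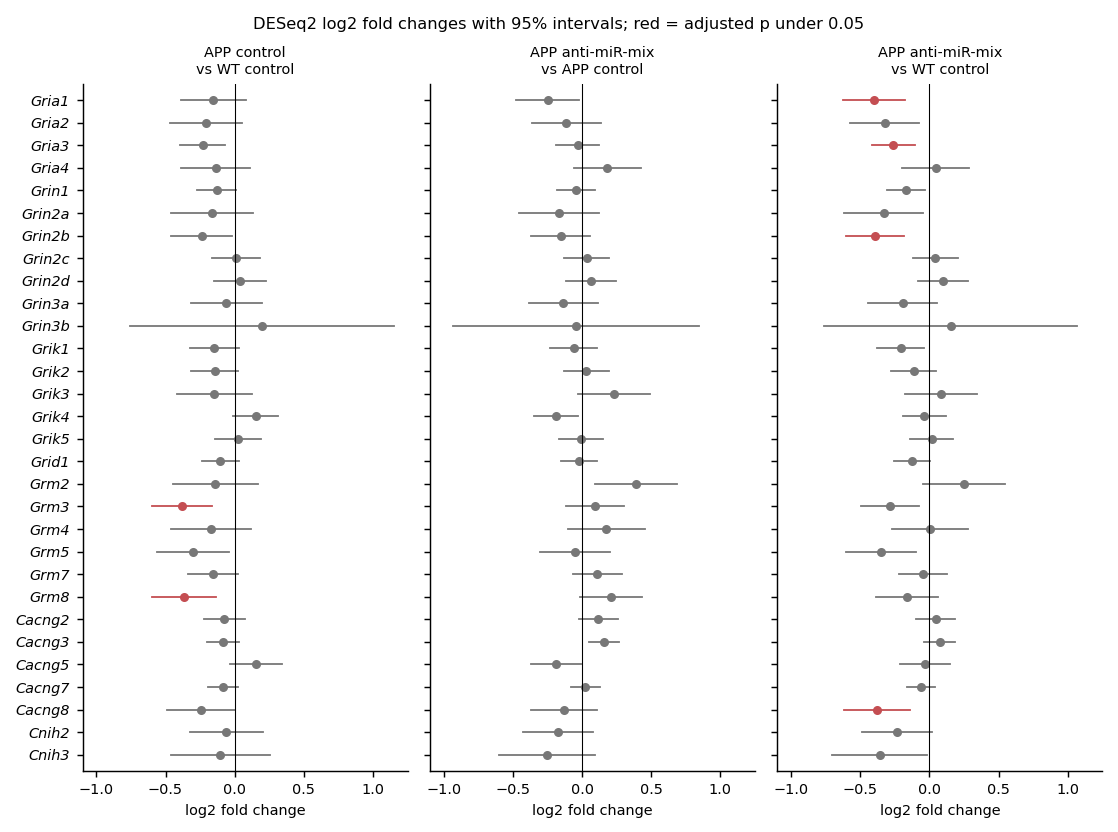
DESeq2 log2 fold change of 30 members in the 3 comparisons (points) with 95% intervals (lines); red marks an adjusted p under 0.05. Grm3 and Grm8 are red in APP control against WT control, Gria1, Gria3, Grin2b and Cacng8 in APP anti-miR-mix against WT control, and none between the transgenic groups; the interval of Grin3b, which has few counts, is the widest.

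How far the treated transgenic mice lay from wild type was asked by setting the treated group against WT control. The WT control libraries are the same as in the comparison above. Gria1, Gria3, Grin2b and Cacng8 were lower in APP anti-miR-mix (DESeq2, adjusted p under 0.05), and no member was higher. These 4 of 30 members (13.3%) stand beside a background of 3.37% of all genes tested in the lower direction. Over all genes 1078 were higher and 649 lower, 881 and 288 in edgeR, and 1451 and 459 in the deposited log2 table. Of the 30 members 20 were lower, with a median log2 fold change of -0.12, against -0.02 over all genes. The groups overlapped for all 4 in normalized counts, while in TPM those of Gria3 and Grin2b did not. On that scale 181 of the 19224 genes tested that had an exon length (0.942%) had every treated library below every wild-type one.

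Gria1 had a lowest, median and highest value of 26641, 32345 and 44060 normalized counts in WT control, of 25007, 29658 and 36774 in APP control, and of 20234, 25482 and 30253 in APP anti-miR-mix. Of the treated libraries 5 of 7 lay below the lowest WT control library, and WT control 4 was far above all others. The log2 fold change against WT control was -0.40 (SE 0.12, DESeq2 adjusted p = 0.00977) in APP anti-miR-mix and -0.15 (SE 0.12, adjusted p = 0.671) in APP control.

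Gria3 had 8714, 9607 and 11538 normalized counts as lowest, median and highest value in WT control, 7038, 8340 and 9441 in APP control, and 7627, 8371 and 8946 in APP anti-miR-mix. Here 6 of 7 treated libraries lay below the lowest WT control library. The log2 fold change was -0.26 (SE 0.08, DESeq2 adjusted p = 0.0161) in APP anti-miR-mix. The values of the transgenic groups lay close together, and APP anti-miR-mix differed from APP control by -0.03 (SE 0.08, 95% interval -0.19 to 0.13).

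Grin2b had 20017, 22508 and 32450 normalized counts as lowest, median and highest value in WT control, 18174, 20745 and 23685 in APP control, and 16253, 18731 and 20536 in APP anti-miR-mix. Of the treated libraries 6 of 7 lay below the lowest WT control library. The log2 fold change was -0.39 (SE 0.11, DESeq2 adjusted p = 0.00526), a decrease by 23.9%. Grin2b kept its side of the threshold in all 31 alternatives tried, which include each fit without 1 library, with an adjusted p of at most 0.0361.

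Cacng8 had 2581, 2790 and 3774 normalized counts as lowest, median and highest value in WT control, 2026, 2420 and 3106 in APP control, and 1741, 2375 and 2739 in APP anti-miR-mix. The log2 fold change was -0.38 (SE 0.12, DESeq2 adjusted p = 0.0263), and 6 of 7 treated libraries lay below the lowest WT control library. APP anti-miR-mix 6 and 7 were the lowest of all 19 libraries. Cacng8 did not pass in edgeR (log2 fold change -0.37), nor without APP anti-miR-mix 6 or 7 (-0.32 each).

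**Figure D4:**
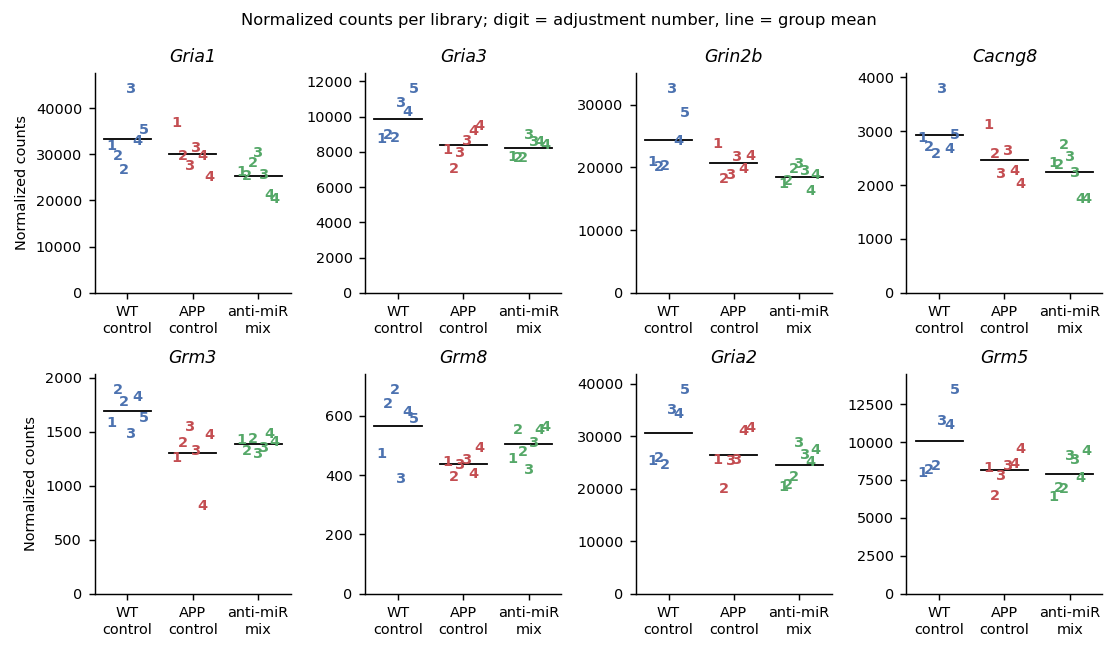
Normalized counts per library for the 6 members that passed in a comparison and for Gria2 and Grm5, by group; each digit is a library and gives its adjustment number, a whole number per library found in the deposited log2 table, and lines are group means. WT control 4, with number 3, is the highest library for Gria1, Grin2b and Cacng8, and APP anti-miR-mix 6 and 7 lie low for Gria1 and Cacng8.

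WT control 4 was the highest of all 19 libraries for 8 of 29 members with a mean of at least 50 counts, namely Gria1, Grin1, Grin2a, Grin2b, Grid1, Cacng8, Cnih2 and Cnih3, and the lowest for 6, Grin2d, Grik3, Grm2, Grm4, Grm8 and Cacng2. It also had the highest CA1 marker score, 12.8, while the other libraries of its group had 12.3 to 12.5. Its dentate gyrus score was the highest of its group as well, at 8.82 against 6.61 to 8.52, and its astrocyte score of 11.4 was the lowest of all 19 libraries. The lowest CA1 scores were those of APP control 3 (12.06), APP anti-miR-mix 7 (12.09) and APP anti-miR-mix 6 (12.14). The CA1 markers pointed in different directions. Between the treated group and WT control their log2 fold changes were -0.63 (Fibcd1), -0.26 (Pou3f1), -0.11 (Mpped1) and 0.33 (Wfs1), and none passed. The part of the dissection in these results was not tested. Without WT control 4, Grin2b (log2 fold change -0.30) and Grik1 passed against WT control and Gria1, Gria3 and Cacng8 did not, at log2 fold changes of -0.31, -0.23 and -0.29. Without WT control 6, Grin2b and Gria1 passed. Over all genes the lower calls moved from 649 to 364 without WT control 4 and to 371 without WT control 6. Without WT control 3, 7 members passed, with Gria2, Grm5 and Grin2a in addition, while the lower calls over all genes were 627. Without both libraries with choroid plexus transcripts Grin2b alone passed, while the log2 fold changes stayed close, at -0.37 for Gria1, -0.26 for Gria3 and -0.35 for Cacng8. The lower calls over all genes were 368 in that fit.

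Some markers of other cell types also differed from WT control. The 5 interneuron markers summed to between 25977 and 29389 normalized counts in WT control and between 21696 and 24738 in the transgenic libraries, with 2 of 5 lower in each comparison against WT control at an adjusted p under 0.05 (DESeq2), Gad1 in both. The 5 microglia markers summed to between 8639 and 13247 in WT control, between 12650 and 25546 in APP control and between 16579 and 25004 in the treated group. The sums of the pan-neuronal markers overlapped, at 143764 to 173774 in wild type, 134066 to 158322 untreated and 136212 to 156331 treated, with a lowest adjusted p of 0.147 (DESeq2) against WT control. All 5 of these markers were nevertheless on the lower side in both comparisons with WT control, with median log2 fold changes of -0.13 untreated and -0.11 treated, beside -0.14 and -0.12 for the members. Of 3 tested thalamus markers, Prkcd was higher in both comparisons with WT control (log2 fold change 0.62 and 0.60) and Lef1 in the treated group (0.77), and of 4 endothelial markers Flt1 was higher in both (0.30 and 0.40; DESeq2, adjusted p at most 0.00828 for each of these calls). The part of these cell types in the results on the members was not tested.

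Among the ionotropic genes that did not pass, Gria2 had 30576 ± 6092, 26462 ± 4247 and 24421 ± 3319.8 normalized counts, with a log2 fold change of -0.32 (SE 0.13, DESeq2 adjusted p = 0.0897) between the treated group and WT control. Grin1 had a log2 fold change of -0.17 (SE 0.07, adjusted p = 0.104), and its exons overlap Grin1os on the opposite strand. Grin2a had -0.33 (SE 0.15, adjusted p = 0.149), and Grik1, a kainate subunit known from interneurons, -0.21 (SE 0.09, adjusted p = 0.122). Cnih3 had -0.36 (SE 0.18, adjusted p = 0.216) and Cnih2 -0.24 (SE 0.13, adjusted p = 0.305). Other values were close to 0: Gria4 had 0.04 (95% interval -0.20 to 0.29), Grin2c 0.04 (-0.12 to 0.21), Grik5 0.01 (-0.14 to 0.17) and Cacng2, known as stargazin, 0.04 (-0.10 to 0.18). Grin2d had 0.10, Grin3a -0.19, Grik2 -0.11 and Grik3 0.08. Cacng7 had -0.06 and Cacng3 0.07. Of the metabotropic genes Grm5 came nearest to the threshold (-0.35, SE 0.13, DESeq2 adjusted p = 0.0604), with 4 of 7 treated libraries below the lowest of wild type, and Grm2 had the highest value, 0.25 (SE 0.15, adjusted p = 0.368).

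The effect of the inhibitors was asked by setting the treated against the untreated transgenic group. Of the 30 members 0 passed in DESeq2 and 0 in edgeR, as did 0% of all genes tested. At an unadjusted p under 0.05 there were 5 members in DESeq2 and the same 5 in edgeR, beside 552 genes (2.86%) and 572 genes. They were Cacng3, Grm2, Grik4, Gria1 and Cacng5, each with an adjusted p of 1 in DESeq2. Of the 30 members 17 were lower and 13 higher, with a median log2 fold change of -0.03, and the median over all genes was -0.001.

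Cacng3, a TARP of the type that slows AMPA receptor closing, had 2222 ± 138 normalized counts untreated (n = 6) and 2478 ± 192 treated (n = 7), a log2 difference of 0.16 (95% interval 0.05 to 0.27). Grm2, the group II receptor of presynaptic endings such as those of the dentate granule cells, had 1485 ± 244 and 1948 ± 305, a log2 difference of 0.39 (95% interval 0.10 to 0.69). WT control 3 had 2309 and APP anti-miR-mix 2 and 7 had 2391 and 2265, and the groups overlapped. Grik4 had 1093 ± 143 and 958 ± 79.9, with 984 ± 65.5 in wild type. Cacng5 had 325 ± 47.8 and 286 ± 24.1, and the treated libraries were lower than every APP control library in 5 of 7. APP control 6, at 420, was the highest. Gria1 differed by -0.25 (95% interval -0.47 to -0.02).

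The 5 tested metabotropic genes of groups II and III all had values above 0, from 0.09 to 0.39 on the log2 scale, and both cornichon genes values below 0, -0.17 for Cnih2 and -0.25 for Cnih3. None of these passed. For the members called against WT control the intervals of the difference between the transgenic groups were -0.37 to 0.05 for Grin2b, -0.37 to 0.10 for Cacng8, -0.12 to 0.30 for Grm3 and -0.02 to 0.43 for Grm8.

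The microRNAs the mixture inhibits pair with target messages through bases 2 to 8, the seed, shown in capitals in the RefSeq mature sequences (GRCm38.p6, 5′ to 3′). They are printed so that the sites in the members can be read against them. The mature sequences lie at chr11:43374435-43374456 on the minus strand for miR-146a-5p, at chr6:51269829-51269850 on the minus strand for miR-148a-3p, and at chr1:137966468-137966490 and chr2:38852741-38852763 on the plus strand for miR-181a-5p.
miR-146a-5p: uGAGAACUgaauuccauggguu
miR-148a-3p: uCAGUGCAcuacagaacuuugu
miR-181a-5p: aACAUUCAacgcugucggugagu

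The study's list of predicted targets names 9 of the 31 members: Gria2, Gria3, Grin2a, Grik2, Grik3, Grik4, Grid1, Grm5 and Grm7. The letters AGTTCTC (miR-146a-5p), TGCACTG (miR-148a-3p) and TGAATGT (miR-181a-5p) were searched on the message strand of the longest annotated 3′ UTR of each gene (GENCODE M21, GRCm38). They stood in 7, 7 and 9 of the 31 members and in 12.4%, 14.9% and 18.1% of the 15397 UTRs of all genes. At least 1 of the 3 stood in 12 members and in 34.9% of all UTRs. The members' UTRs were longer, with a median of 1548 bases against 1161. Per kilobase of UTR the members held 0.102, 0.102 and 0.147 matches and all genes 0.0870, 0.106 and 0.142, so that the rates lay close together.

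Sites in 6 of the listed members are shown as windows of 23 bases with the seed match in capitals. They are matches of letters and no evidence of binding. That in Gria3 lies at chrX:41677465-41677487 on the plus strand, that in Grin2a at chr16:9574107-9574129 on the minus strand, and those in Gria2, Grik2, Grik3 and Grm5 at chr3:80688571-80688593 (minus), chr10:49099536-49099558 (minus), chr4:125712468-125712490 (plus) and chr7:88131281-88131303 (plus).
Gria3, miR-146a-5p: gtgggttcagaccacAGTTCTCa
Grin2a, miR-148a-3p: tataaataaatacctTGCACTGa
Gria2, miR-181a-5p: gtcctggcatgggaaTGAATGTc
Grik2, miR-181a-5p: tcttgcatgtgtaaaTGAATGTa
Grik3, miR-181a-5p: tgtacaatatatataTGAATGTa
Grm5, miR-181a-5p: tgattcaccaaacatTGAATGTa

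None of the listed members passed between the transgenic groups. Of the 9, 3 had a value above 0 (Grik2, Grik3 and Grm7) and 6 below, with a median log2 difference of -0.03 between treated and untreated, a lowest value of -0.19 (Grik4) and a highest of 0.23 (Grik3). The 21 tested members that were not listed had a median of -0.01, with 10 above 0. The 12 members with any of the letters had a median of -0.04 and the 18 without 0.01. The listed Grm7 held none of the letters and counts among the 18, so these sets do not separate predicted targets from other members. These medians were not tested. Of the targets shown above, Gria3 differed by -0.03 (SE 0.08), Grin2a by -0.17 (SE 0.15), Gria2 by -0.12 (SE 0.13) and Grm5 by -0.05 (SE 0.13).

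Some members also varied with a property of the libraries that is not the group. The deposited log2 table differs from the counts by a whole number from 1 to 5 per library times a slope per gene, here the adjustment number, whose meaning is not given in the sources used here. Its mean was 2.83, 2.83 and 2.71 in the groups. With it as a linear term in DESeq2 beside the group, 8 of 30 members depended on it at an adjusted p under 0.05, as did 29.3% of all genes, 5 members rising with the number and 3 falling. The members' share of 26.7% is near that background, and so is no result particular to them.

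Gria2 changed most, by 0.16 on the log2 scale per unit (SE 0.03, DESeq2 adjusted p = 3.63e-07). It had 23062 ± 2484 normalized counts in the 8 libraries with a number of at most 2 and 31307 ± 4843 in the 6 with 4 or 5. Grm5 changed by 0.15 per unit (SE 0.03), Gria4 by 0.12 (SE 0.04), Gria3 by 0.09 (SE 0.02) and Grik2 by 0.09 (SE 0.02). Grin2c fell by 0.09 per unit (SE 0.02), Grin1 by 0.06 (SE 0.02) and Cacng7 by 0.04 (SE 0.02). Gria1 (-0.04, SE 0.04) and Grin2b (0.05, SE 0.04) did not pass.

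The calls between groups moved when the number entered the fit, and none of the 15 member fold changes followed over the alternatives reversed. With the number as a linear term Gria3 and Grm5 joined Grm3 and Grm8 among the members that fell in APP control. With it as a factor Gria2, Gria3 and Grm5 passed there and Grm3 and Grm8 did not. Over all genes the lower calls in APP control moved from 202 to 452 with the linear term and to 252 with the factor. In the treated group against wild type, Gria2, Grm5 and Grin1 joined the 4 called members in either form, while the lower calls over all genes moved from 649 to 1076 with the linear term and to 707 with the factor. Between the transgenic groups 0 members passed in any of the 31 alternatives.

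**Figure D5:**
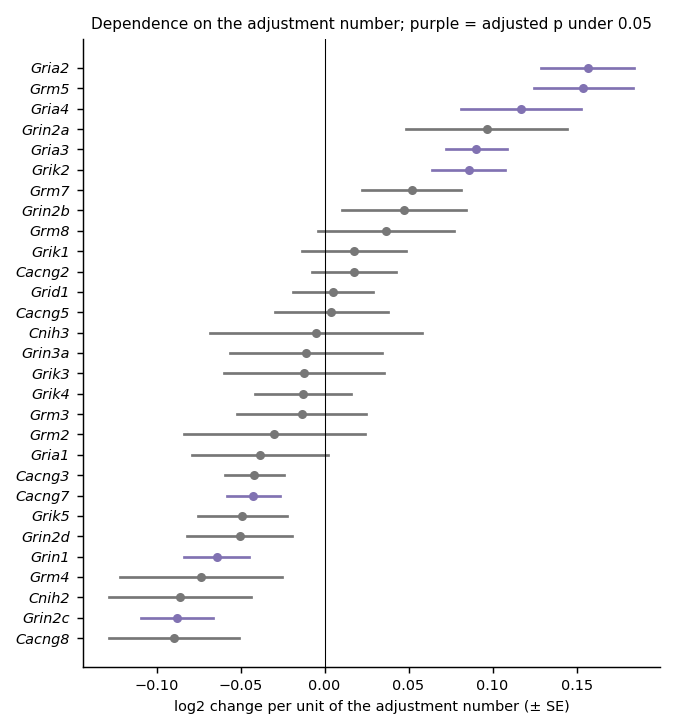
Log2 change of 29 members per unit of the adjustment number (points, with lines of 1 SE either way) from DESeq2 with the group in the model; purple marks an adjusted p under 0.05. Gria2 and Grm5 rise most with the number, and Grin2c, Grin1 and Cacng7 fall; Grin3b, with few counts, is not drawn.

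Genes around the receptors were read from a list of 29 partners and glutamate handling genes. In APP control 24 had a value below 0, as did 54.4% of all genes tested, and 1 was called lower, beside 1.05% of all genes. This was Grip1, a scaffold that binds the tails of AMPA receptors. It had 992 ± 62.5, 841 ± 72.7 and 788 ± 79.2 normalized counts (SD, n = 6, 6 and 7), with log2 fold changes against WT control of -0.24 (SE 0.07, DESeq2 adjusted p = 0.0313) and -0.33 (SE 0.07, adjusted p = 1.70e-04). Of the 29 genes 0 passed between the transgenic groups in DESeq2, and 5 had an unadjusted p under 0.05, beside 2.86% of all genes, among them Nptx2 (-0.68, SE 0.17, adjusted p = 0.434) and Gsg1l (0.65, SE 0.20, adjusted p = 1).

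In the treated group against wild type 4 of the 29 were lower and 1 higher, beside 3.37% and 5.59% of all genes tested. Besides Grip1, these were Srr, the serine racemase that makes the NMDA receptor co-agonist (-0.22, SE 0.06, DESeq2 adjusted p = 0.00421), Neto1, an auxiliary subunit of kainate receptors (-0.35, SE 0.11, adjusted p = 0.0207), and Nptx2, an activity-induced pentraxin that clusters AMPA receptors (-0.93, SE 0.17, adjusted p = 3.27e-06). Gsg1l, an AMPA receptor auxiliary subunit, was higher (0.62, SE 0.20, adjusted p = 0.0230), with 1263 ± 360, 1239 ± 284 and 1939 ± 572 normalized counts, and its groups overlapped.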

How the data were processed

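Gene expression was measured by poly(A) RNA-seq of CA1 tissue (TruSeq v2, a kit that does not mark strand; single-end reads) in 19 libraries. Per the labels and the study, the authors aligned reads to mm10 with STAR (2.5.2b) and deposited raw read counts per gene from featureCounts (Subread 1.5.1). FastQC (0.11.5) is also named in the processing notes. The annotation release and the strand setting are not given in the sources used here. Since the kit does not mark strand, reads of overlapping genes on opposite strands cannot be told apart by strand. A second file deposited by the authors holds normalized log2 values of 18825 genes. It equals log2(CPM + 1), computed with a pseudocount of 1, plus a whole number per library times a slope per gene (largest residual 4.03e-08), and it entered only as an alternative.

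A gene was kept if 50% of the libraries or more had 5 or more counts (19297 genes). Counts of all 3 groups were tested in 1 fit with DESeq2 (1.42.0; Wald test, unshrunken log2 fold changes, Benjamini-Hochberg threshold 0.05 over all genes), which gave a p for 19284 genes. Normalized counts are divided by DESeq2 size factors. Levels per length are TPM over merged exons of GENCODE M21 (GRCm38). Intervals are 95% (1.96 SE), and the floor of 3 counts covers counting error only. No pair of libraries of a group matched within sampling noise (chi-square per gene at least 4.94). Alternatives used edgeR (4.0.16), limma (3.58.1) and other filters, factors and libraries. Tests were checked on simulated data. R (4.3.3), Python (3.11.15), numpy (2.4.6) and pandas (2.3.3) were used. Every member was to be named, those past the threshold with full values, and of the partners at most 8 that passed. The members and lists were chosen with earlier results of these data known.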

Additional observations from a re-analysis of the deposited data

Results flagged for a closer look

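Each member's libraries were examined within each group for a highest or lowest library whose gap to the next was large against the range of the group (Dixon's test at 95%). Of 90 groups 7 had such a library, and chance alone would give about 1 in 20, or 4.5. APP control 6 was set apart in 3 of them: Gria4 had 3305 normalized counts there, against 2137 to 2400 in the other APP control libraries, Cacng2 had 2058 against 1621 to 1781, and Cacng5 had 420 against 297 to 319. The other values were 2605 for Grid1 in APP control 1 (others 2191 to 2320), 1605 for Cacng2 in APP anti-miR-mix 4 (others 1847 to 1987), 348 for Cacng5 in WT control 1 (others 270 to 297) and 3774 for Cacng8 in WT control 4 (others 2581 to 2931).

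In APP anti-miR-mix against WT control Cacng8 did not pass without WT control 4, at a log2 fold change of -0.29 beside -0.38 with it. It also did not pass without WT control 6 (-0.38), APP anti-miR-mix 6 (-0.32) or APP anti-miR-mix 7 (-0.32). The causes were not tested.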

How the results depend on the processing

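The counts of genes and of members past the threshold were recomputed under 31 alternatives, and so were 15 log2 fold changes of members that passed under at least 1 of them. None of the 465 recomputed fold changes reversed, 34 lost and 37 gained the threshold. In APP control against WT control the count of members moved from 2 to 0 with edgeR, in the 2-group fit and without both libraries with choroid plexus transcripts, and to 4 with a linear term for the adjustment number, while the count of genes moved from 908 to 621, 746, 857 and 1329 in this order. In APP anti-miR-mix against WT control it moved from 4 to 7 with the adjustment number as a factor or a linear term, and to 1 without the libraries with choroid plexus transcripts, while the count of genes moved from 1727 to 1733, 2371 and 1259 in this order. Between the transgenic groups the count of genes moved from 0 to 3 in the 2-group fit, with 0 members. The cause was not tested.

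Leaving out 1 library at a time gave 0 to 3 members and 666 to 1209 genes in APP control against WT control, 2 to 7 members and 1169 to 2012 genes in APP anti-miR-mix against WT control, and 0 members and 0 to 3 genes between the transgenic groups. No member passed in APP control against WT control without WT control 2, 3 or 5, where 702, 756 and 884 genes passed. In APP anti-miR-mix against WT control 7 members and 1662 genes passed without WT control 3.

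The labels do not say that a replicate number marks a shared batch, and not every same-numbered pair correlated, so the numbers were not taken to pair the libraries. The correlations ran from -0.157 to 0.594 with a median of 0.218 (12 of 18 over 0.1), against a median of -0.0089 for other pairs, and 5 of 18 libraries correlated best with their own number. The adjustment number never falls with the replicate number within a group. With the replicate block 4 members passed in APP control against WT control (Gria3, Grm3, Grm8 and Grm5), 8 in APP anti-miR-mix against WT control and 0 between the transgenic groups, with 1228, 2221 and 1 genes. The 8 were Gria1, Gria2, Gria3, Grin2a, Grin2b, Grik1, Grm5 and Cacng8. A fit with sex as a term was not run, because Y-linked genes had at least 2570 counts and Xist at most 23 in all 19 libraries. Depth limits what can be said of Grm6 and Grin3b.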
